A study of Mus musculus with 15 samples.

Results

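The tibialis anterior is the fast muscle at the front of the mouse shin, and its transcriptome was described here in mice that carried no tumour. The libraries were chosen by title alone: the 5 libraries titled as controls, of 15 in the series. The labels give them as total RNA from the tibialis anterior of male C57BL/6 mice of the C57BL/6NCrlOri stock, aged 6 to 8 weeks, and name neither tumour cells nor an antibody for this group. Library preparation kept strand, with a directional MGIEasy kit. The labels do not say whether each library came from a separate mouse, so the spread between libraries may in part be technical. The other groups of the series were not used, and no comparison between groups was made.

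A skeletal muscle fibre is a multinucleate cell filled with sarcomeres, in which myosin thick filaments pull on actin thin filaments when calcium binds the troponin complex. Fast and slow fibres use different genes for many sarcomere proteins and share the genes of others. Their myosin heavy chain is the usual type label: Myh4 for type IIB, Myh1 for IIX, Myh2 for IIA and Myh7 for type I. Fast glycolytic fibres draw on creatine phosphate and glycolysis, while slow and IIA fibres hold more mitochondria, myoglobin and fatty acid enzymes. Whole muscle also holds vessels, connective tissue, nerve, satellite cells and immune cells.

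Levels between genes are given in TPM, transcript abundance per gene length scaled to a fixed sum per library. The spread of 1 gene between libraries is given in CPM, counts scaled for library size and composition. Total expected counts ran from 17664347 to 19786207 per library, and 19084 to 19638 of 55416 genes had a value above 0. A count of 0 in 1 library allows up to 0.134 to 0.172 CPM, the level of 3 counts on that scale. Such limits cover counting error only, since no molecular identifiers are named. Each mean is followed by its SD over the 5 libraries, and values per library are in the order of replicates 1 to 5.

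Markers of the label were checked first. Myogenic genes were present: Mef2c, a transcription factor of differentiated muscle, had 87.6, 124, 106, 101 and 106 TPM, and Myf6, the myogenic factor of adult fibres, had 49.2, 89.6, 65.7, 61.2 and 79.6 TPM. Hoxc10, a homeobox gene of the hindlimb level, stood at 26.3 to 37.8 TPM, whereas Tbx5, the forelimb T-box factor, was listed at 0 in all 5 libraries. Tbx4, its hindlimb counterpart, was low at 0.67 to 1.14 TPM, and Pitx1, another hindlimb factor, had at most 4 counts. The Y-linked Ddx3y stood at 16.8 to 20.2 TPM and Xist, the RNA of the inactive X, had at most 1 count. Nnt, the mitochondrial transhydrogenase that is deleted in part in the C57BL/6J substrain, stood at 9.52 to 23.8 TPM. Markers of skin, cartilage and bone were near 0: Krt5, Krt14, Krt1, Krt15, Bglap and Ibsp were listed at 0 in all 5 libraries.

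A small number of genes held much of this transcriptome. The 10 genes of highest TPM held 45.3, 43.4, 42.6, 36.6 and 38.9% of the TPM sum, a mean of 41.4% ± 3.52 (SD, n = 5). Only 13 to 18 genes were needed to reach 50% of the sum, and 767 to 1239 genes to reach 90%. Between 10440 and 11440 genes had at least 1 TPM, and 64 to 82 had at least 1000 TPM. Replicates 4 and 5 had the lowest shares in the 10 leading genes. Without the mitochondrial genes and their nuclear copies, described next, the 10 leading genes held 28.4, 26.3, 27.3, 30.9 and 26.8%, and replicate 4 had the highest share.

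Mitochondrially encoded RNA was the largest single block. The 37 genes of the mitochondrial genome held 40.7, 37.7, 35.2, 31.2 and 33.5% of TPM, 35.6% ± 3.69 (SD, n = 5). The share was highest in replicate 1 and lowest in replicate 4. Their share of expected counts was smaller, at 20.5% ± 2.27. The gap came in part from very short genes: mt-Atp8, a subunit of ATP synthase 204 bases long, held 7.54 to 12.5% of TPM but 0.213% ± 0.0563 of expected counts, because its effective length was 18.2 to 21.4 bases. With counts divided by full gene length, the 37 genes held 28.0% ± 2.71. The order of single mitochondrial genes by TPM was therefore set aside.

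Reads of mitochondrial genes were also shared with nuclear copies. On chromosome 1, on the minus strand between 24612407 and 24616197 (GRCm38, GENCODE vM21), lie 5 unprocessed pseudogenes, of which Gm28661, Gm28437, Gm10925 and Gm10222 were 100% identical to mt-Co2, mt-Co3, mt-Atp6 and mt-Nd4l. Gm29216 was 99.8% identical to mt-Co1 over 483 bases. These 5 copies held 13.9% ± 2.54 of TPM, which raised the mitochondrial total to 49.5% ± 5.25. Of the counts of mt-Co2, which encodes cytochrome oxidase subunit 2, and Gm28661 together, a mean of 99.4% were assigned to the copy. For mt-Atp6, another ATP synthase subunit, the share given to Gm10925 was 34.9, 59.5, 63.5, 28.7 and 19%, so the split itself moved between libraries. The values of these 5 genes and their copies are uncertain one by one, and were added up for each pair. On that scale mt-Co1, the catalytic subunit of cytochrome oxidase, held 5.86% ± 0.924 of expected counts, mt-Co3 with its copy 4.01%, mt-Co2 3.05% and mt-Atp6 2.64%. The subunits of complex I and the cytochrome b gene mt-Cytb followed, from mt-Cytb at 2.31% and mt-Nd1 at 2.27% to mt-Nd6 at 0.255%, mt-Atp8 at 0.213% and mt-Nd4l at 0.198%. Among the 13 protein genes of the mitochondrial genome, with copies added, 5 were highest in replicate 1 and 8 in replicate 2, while 7 were lowest in replicate 4, 5 in replicate 5 and 1 in replicate 2.

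With the mitochondrial genes and their copies left out, the contractile and energy genes of fast fibres filled the top. Among nuclear genes the first was Acta1, the skeletal alpha-actin of the thin filament, at 15765, 15909.9, 16396, 24589.9 and 20919.5 TPM, a mean of 18716 ± 3915 (SD, n = 5). Next came 2 fast myosin light chains, the regulatory chain Mylpf at 16278 ± 3732 TPM and the essential chain Myl1 at 16154 ± 2928 TPM. These 3 means lay within 1 SD of each other, yet Acta1 stood above Mylpf in all 5 libraries. Myl1 stood above Acta1 in replicate 1 only, and Mylpf and Myl1 changed order between libraries. The fast troponins followed: the tropomyosin-binding Tnnt3 at 15274 ± 1722 TPM, the calcium-binding Tnnc2 at 14226 ± 1746 and the inhibitory Tnni2 at 10135 ± 1299.9. Tpm1, the tropomyosin that lies along actin, reached 11989 ± 1574 TPM.

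Energy and calcium genes shared that rank. Ckm, the muscle creatine kinase that regenerates ATP, stood at 13912, 12884, 13469, 18049.6 and 14250 TPM. Aldoa, the muscle aldolase of glycolysis, stood at 12387, 12769, 13155, 18207 and 13388 TPM. Gapdh, a later enzyme of that pathway, stood at 7883, 7932, 8261, 11247 and 8599 TPM. In TPM each of the 3 was highest in replicate 4, the library with the lowest mitochondrial share of TPM; the part of that share was not tested. In CPM, Ckm had 20491, 15850.1, 17216, 22865 and 15249, so that replicate 4 was still highest but nearer to the next library. Pvalb, the calcium buffer parvalbumin of fast fibres, had 10165 ± 1577 TPM and Atp2a1, the fast calcium pump of the sarcoplasmic reticulum, 5467 ± 629 TPM.

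The rest of the 20 nuclear genes of highest mean TPM began with Myh4, the IIB myosin heavy chain, at 3501 ± 597 TPM. Tpt1, a widely expressed growth-related protein, had 3242 ± 783 TPM and Eno3, the muscle enolase, 2704 ± 269.8 TPM. Mb, the oxygen carrier myoglobin, had 2524, 2525, 2549.7, 1795 and 2778 TPM and was lowest in replicate 4. Fth1, the ferritin heavy chain, had 2417 ± 752 TPM and Tcap, a titin cap of the Z-disc, 2307 ± 168 TPM. Cox8b, a muscle subunit of cytochrome oxidase, had 2193 ± 367 TPM and Actn3, the fast alpha-actinin, 2152 ± 255 TPM.

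**Figure D1:**
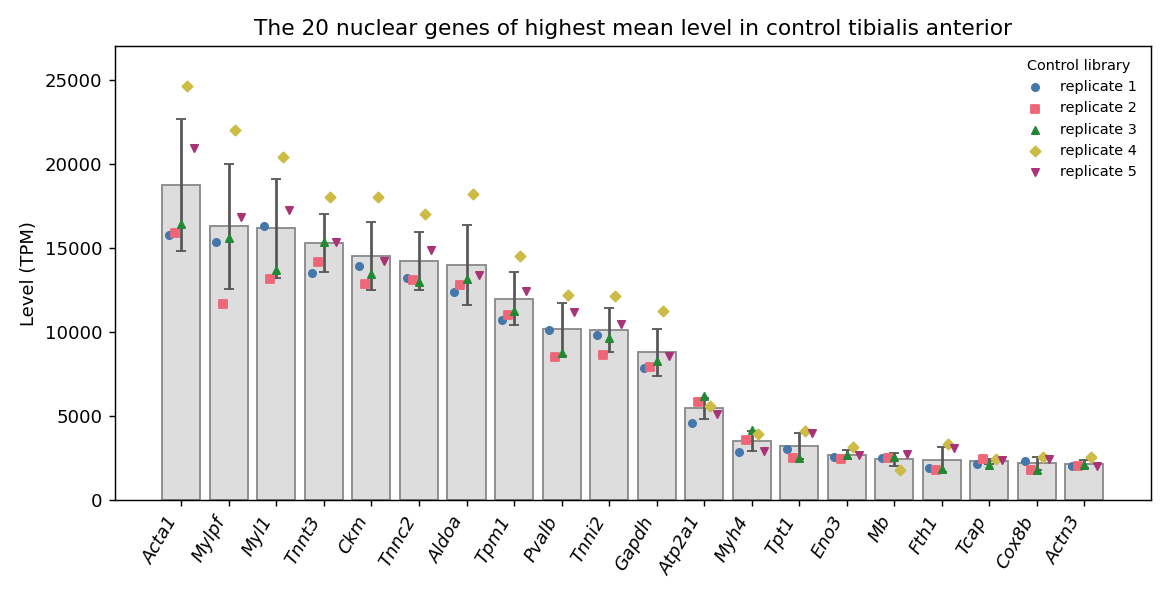
TPM (linear axis) of the 20 nuclear genes of highest mean level in the 5 control libraries, with 1 symbol per library. Grey bars give the mean and error bars its SD. Acta1 leads at 15765 to 24590 TPM, replicate 4 is highest for Ckm, Aldoa and Gapdh, and it is lowest for Mb.

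By function, the share of the nuclear TPM sum (all genes but the mitochondrial ones and their copies) was steady between libraries for most groups. The 53 sarcomere and fibre genes together held 27.7 ± 1.15%. Within them the 14 fast genes held 19.4 ± 1.07% and the 26 genes common to both fibre kinds, such as Acta1 and Tcap, 7.89 ± 0.358%. The 13 slow genes held 0.245, 0.922, 0.383, 0.134 and 0.225%, a small and uneven share that was largest in replicate 2 and smallest in replicate 4. Myosin heavy chains, which are long genes, made up 0.828 ± 0.186%.

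Among metabolic groups, 26 genes of glycolysis and glycogen use held 7.31 ± 0.491% and the 7 genes of creatine and adenylate buffering 3.22 ± 0.205%. The 64 nuclear subunits of oxidative phosphorylation held 8.52 ± 0.477%. Oxygen and fatty acid handling, 18 genes led by Mb, held 1.12 ± 0.211%, with Car3, a carbonic anhydrase, at 939 to 1317 TPM and Fabp3, the muscle fatty acid binding protein, at 491 to 879.9 TPM. Calcium release and excitation genes held 0.653 ± 0.0463%. The 89 cytosolic ribosomal protein genes held 8.1, 6.45, 6.58, 9.01 and 9.25% and were less even, with replicates 2 and 3 lowest. Most of these genes are short, and in the same 2 libraries the 94 genes under 500 bases had a median of -0.36 and -0.19 log2 CPM from their means, against 0.29 in replicate 4. The part of length in the ribosomal values was not tested.

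Because the next results turn on the fibre genes, the 250 bases before the annotated start of Acta1, Myh4 and Myh7 are shown, one gene common to all fibres, one of IIB fibres and one of slow fibres. They were taken from RefSeq on GRCm38.p6, at chr8:123894776-123895025 (minus strand), chr11:67237562-67237811 (plus strand) and chr14:54994627-54994876 (minus strand), and are written 5′ to 3′. Capitals mark exact matches, on either strand, to the TATA box (TATAAA), the E-box (CANNTG) bound by myogenic factors and the MCAT element (CATTCC) bound by TEAD factors.

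Acta1: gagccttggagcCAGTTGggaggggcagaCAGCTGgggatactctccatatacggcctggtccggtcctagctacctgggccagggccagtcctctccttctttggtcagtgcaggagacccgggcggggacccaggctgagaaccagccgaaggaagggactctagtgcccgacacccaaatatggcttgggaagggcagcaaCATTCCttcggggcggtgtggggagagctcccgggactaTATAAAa
Myh4: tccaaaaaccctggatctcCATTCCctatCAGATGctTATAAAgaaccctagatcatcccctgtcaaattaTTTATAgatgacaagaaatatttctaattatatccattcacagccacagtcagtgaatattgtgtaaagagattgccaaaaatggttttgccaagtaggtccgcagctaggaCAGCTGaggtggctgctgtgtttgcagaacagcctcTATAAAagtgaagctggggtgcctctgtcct
Myh7: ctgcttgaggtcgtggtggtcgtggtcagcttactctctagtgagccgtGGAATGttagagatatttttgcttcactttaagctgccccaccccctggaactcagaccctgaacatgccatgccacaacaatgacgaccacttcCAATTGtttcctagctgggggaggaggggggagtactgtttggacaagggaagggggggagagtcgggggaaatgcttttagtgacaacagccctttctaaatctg

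Acta1 and Myh4 each held at least 1 match to all 3 motifs, and Myh7 held 1 MCAT and 1 E-box match but none to TATAAA. Among 32851 RefSeq promoter windows of this length, 12.4% held the TATA box, 66.2% an E-box and 12.6% an MCAT element. A match is a description of letters only, and none of these data bear on binding.

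Fibre type make-up, read from myosin RNA, was strongly IIB in every library. The shares below are of RNA, and shares of fibres or of protein were not measured. Of the summed TPM of the 4 adult limb myosins, Myh4 made up 86.7, 80.2, 81.8, 90.5 and 85.4%, a mean of 84.9% ± 4.07 (SD, n = 5). Myh1, the IIX myosin, made up 8.56, 8.05, 12.5, 7.04 and 8.99% and was highest in replicate 3. Myh2, the IIA myosin, made up 4.15, 6.19, 4.77, 2.29 and 5.26%. Myh4 led by a wide margin in all 5 libraries, and the ranges of Myh1 and Myh2 did not overlap. The slow myosin Myh7 made up 0.551, 5.52, 0.985, 0.193 and 0.394%, so that replicate 2 held more slow myosin RNA than any other library.

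In levels, Myh4 stood at 2851, 3605, 4178, 3948 and 2922 TPM, Myh1 at 281, 362, 638, 307 and 308 TPM and Myh2 at 136, 278, 243.9, 100.1 and 180.1 TPM. Myh7 stood at 18.1, 248, 50.3, 8.43 and 13.5 TPM. The other myosin heavy chains were close to 0: the embryonic Myh3 at 0.1 to 0.54, the neonatal Myh8 at 0.17 to 0.43 and the extraocular Myh13 at 0.28 to 0.46 TPM. The atrial Myh6 stood at 0.19 to 1.76 TPM, Myh7b at 0.36 to 1.87 TPM and Myh15 had at most 1 count. Myosin genes are alike over long stretches, and RSEM divides reads between them, so the low members are uncertain.

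Each fast gene exceeded its paralog in all 5 libraries. The paralog was a slow gene in all pairs but that of Actn3, since Actn2 is listed as common to both fibre kinds. For the calcium sensor, Tnnc2 over Tnnc1, the TPM ratio was 139.5, 27.7, 118, 521 and 198. The inhibitory troponins Tnni2 and Tnni1 gave ratios of 435, 61.3, 301, 1287 and 553. The calcium pumps Atp2a1 and Atp2a2 gave 167, 23.4, 112, 328 and 204. All 3 ratios were lowest in replicate 2 and highest in replicate 4. Ratios of Tnnt3 to Tnnt1 ran from 42.2 to 635, of Mylpf to Myl2 from 11.7 to 134, and of Myl1 to Myl3 from 18.1 to 149.9. The calcium stores Casq1 and Casq2 gave 58.7 to 167, Myoz1 and Myoz2, 2 Z-disc proteins, 8.87 to 28.7, and the alpha-actinins Actn3 and Actn2 6.74 to 18.7. In 9 of the 10 pairs replicate 2 had the lowest ratio. The exception was Mybpc2 over Mybpc1, the fast and slow myosin binding proteins, with ratios from 3.05, in replicate 3, to 7.76.

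**Figure D2:**
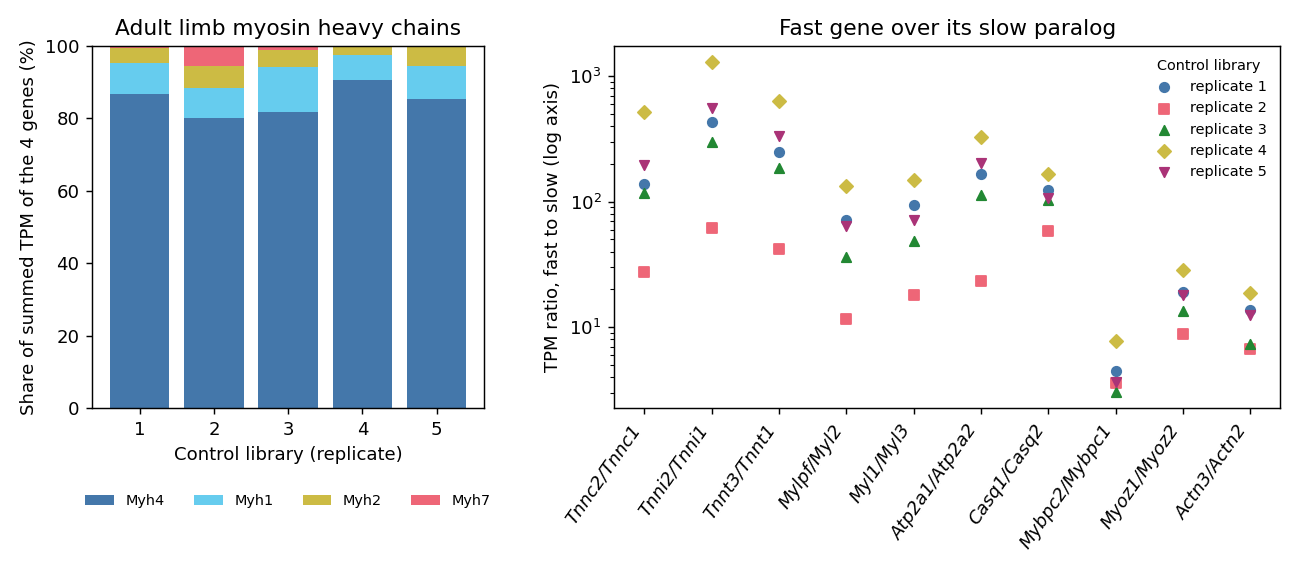
Left, the share (%) of Myh4, Myh1, Myh2 and Myh7 in their summed TPM in each control library. Right, the TPM ratio (log axis) of 10 fast genes to their paralogs, 1 symbol per library. The paralogs are slow genes except Actn2, which is common to both fibre kinds. Myh4 holds 80.2 to 90.5%, and replicate 4 has the highest ratio in all 10 pairs.

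The slow program differed between libraries as a block. Of its 13 genes, 12 passed the filter of a mean of 5 CPM. Of these, 10 were highest in replicate 2, and all 12 were lowest in replicate 4. The share of all genes highest or lowest in a given library was not counted. Myl2, the slow regulatory light chain, had 214, 997, 429, 163 and 263.1 TPM. Tnnt1, the slow tropomyosin-binding troponin, had 54.1, 336, 82.2, 28.4 and 45.8 TPM. Tpm3, the slow tropomyosin, had 81.9, 443, 114, 34.6 and 61.2 TPM. The median of the 12 genes lay -0.13, 1.76, 0.22, -1.15 and -0.61 log2 CPM from their 5-library means. The same median over the 7 genes of 1000 to 5000 bases was 1.95 in replicate 2 and -1.29 in replicate 4, so the difference was as large among genes of middle length. The 14 fast genes lay closer together, with medians of 0.09, -0.13, 0.00, 0.26 and -0.16 log2 CPM.

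Marker genes of all cell type lists together summed to 4554 TPM ± 692 (SD, n = 5), of which a few genes made up a large part. Without the leading gene of each list the sum was 2244 TPM. The sum is not of non-fibre cells alone, because it includes the desmin gene Des, which fibres express strongly. It also includes lists of fibre nuclei, at 107 ± 10.9 TPM (neuromuscular junction) and 10.1 ± 2.09 TPM (myotendinous junction). In bulk RNA, fewer cells of a type and less RNA per cell cannot be told apart. Connective tissue, smooth muscle and red cell lists had the highest sums. The 14 genes of fibro-adipogenic progenitors and matrix summed to 896, 823, 1130.5, 1031 and 1404 TPM. Dcn, the collagen-binding proteoglycan decorin, stood at 282.8 to 518 TPM, Gsn, the actin-severing gelsolin, at 215 to 364, and Ly6a, which encodes the surface marker Sca-1, at 80.5 to 142. Replicate 5 was highest and replicate 2 lowest in this sum.

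The 14 endothelial genes summed to 333, 449, 450.2, 437 and 568 TPM, with Aqp1, a water channel of capillaries, at 122 to 215 TPM and Ly6c1, a surface protein of endothelium, at 110.02 to 166 TPM. Kdr, the main VEGF receptor, had 3.18, 4.23, 2.4, 4.28 and 7.76 TPM and was highest in replicate 5. Smooth muscle and pericyte genes summed to 979 to 1236 TPM, but to 177 to 275 TPM without Des, the intermediate filament desmin, which fibres express strongly. Haemoglobin genes and other red cell genes summed to 1105, 856, 656, 1166 and 1408 TPM, lowest in replicate 3. Hba-a1 and Hba-a2 are nearly identical, as are Hbb-bs and Hbb-bt, so only the sum is firm. Lymphatic genes, led by the chemokine Ccl21a, summed to 14.2 to 35.5 TPM.

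Nerve and its contacts were visible at low levels. The 11 genes of Schwann cells and myelin summed to 71.4, 101, 204, 66.8 and 194 TPM. Mbp, a myelin protein, had 12.3, 22.4, 49.4, 10.4 and 35 TPM. Replicates 3 and 5 stood above the other 3 in the sum and in Mbp. The motor neuron enzyme Chat was listed at 0 in all 5 libraries. The neuron list summed to 2.5 to 3.5 TPM, or 0.27 to 0.52 without its leading gene Stmn2. Genes of the neuromuscular junction summed to 90.5 to 119.8 TPM, or 57.7 to 81.2 without Prkar1a, the leading gene of the list. Rapsn, which clusters acetylcholine receptors, stood at 9.53 to 11.7 TPM and Chrna1, a receptor subunit, at 2.12 to 3.15 TPM. Chrng, the fetal receptor subunit, stood at 0.06 to 0.11 TPM.

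Satellite cell genes were low once shared genes were set aside. Pax7, the transcription factor that marks these stem cells, had 0.18, 0.36, 0.22, 0.26 and 0.34 TPM, and Myod1, a myogenic factor, 4.46, 6.08, 4.98, 6.65 and 7.71 TPM. The list summed to 44.5 to 69.1 TPM without Des. Adipocyte genes summed to 242 to 333 TPM, or 30.5 to 83.1 without Fabp4, which capillaries also express. Adipoq, the adipocyte hormone adiponectin, had 3.07, 2.51, 3.3, 0.68 and 0.91 TPM, lowest in replicates 4 and 5. Cfd, the adipocyte protease adipsin, had 23.5, 25.4, 21.2, 10.3 and 3.49 TPM and was likewise lowest in those libraries. Tenocyte genes summed to 50.9 to 103 TPM, led by Fmod, the tendon proteoglycan fibromodulin.

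Immune genes were scarce. The 14 macrophage genes summed to 56.1, 43.8, 63.9, 69.8 and 88.8 TPM, with C1qb, a complement protein of resident macrophages, at 9.38 to 19.6 TPM. Antigen presentation genes summed to 81.8 to 143 TPM, led by the invariant chain Cd74. Mast cell genes, led by the protease Mcpt4, summed to 6.12 to 21 TPM. Macrophage and mast cell sums were both lowest in replicate 2. B cell genes summed to 24.6 to 36.6 TPM, but to 1.16 to 6.51 TPM without Ighm. T and NK cell genes summed to 0.9 to 2.34 TPM, and Cd8a, the co-receptor of cytotoxic T cells, had at most 4 counts. Cd274, which encodes PD-L1, had 0.34, 0.93, 0.64, 0.55 and 2.03 TPM, and its receptor gene Pdcd1 was listed at 0 in all 5 libraries. Neutrophil genes summed to 1.49, 1, 11.5, 1.11 and 1.04 TPM, with replicate 3 apart from the others through S100a8 and S100a9, which had at most 29 counts.

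**Figure D3:**
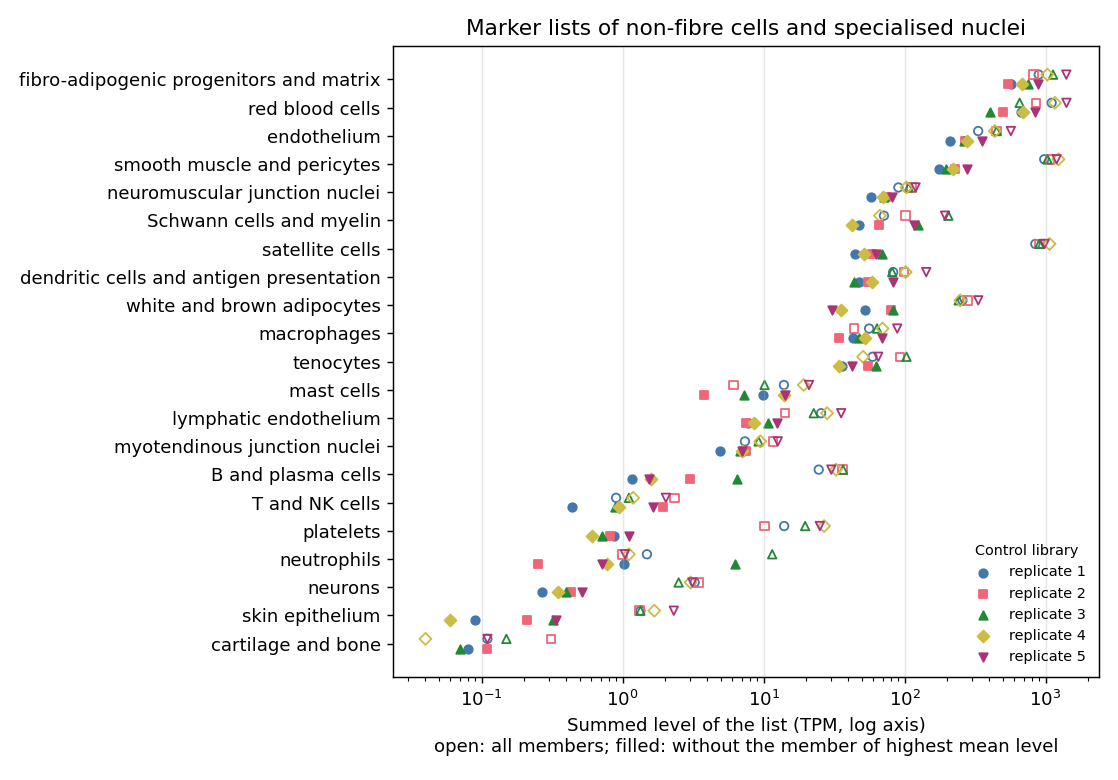
Summed TPM (log axis) of each list of cell type markers in the 5 control libraries, 1 symbol shape per library. Open symbols give all members, and filled symbols leave out the member of highest mean level. With all members, connective tissue and red cell sums reach about 1000 TPM, as do smooth muscle and satellite cell sums, mainly through Des. T and NK cell, skin and bone sums stay at 2.34 TPM or less.

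Spread between libraries was small for most genes. Of 8889 genes with a mean of at least 5 CPM, the median SD of log2 CPM was 0.16, and the 5th and 95th percentiles were 0.06 and 0.41. The median biological coefficient of variation, edgeR's estimate of spread beyond counting error, was 12.9%. A gene was called variable at an SD of at least 0.5, and 254 of the 8889 genes, 2.86%, met this. Without replicate 3 the number was 165, of which 130 were among the 254. An SD of at least 1 was reached by 26 genes. There is 1 group, so these are descriptions and carry no test.

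Of the 696 genes in the lists, 492 passed the filter and 68 of these were variable, 13.8% against 2.86% of all genes; the lists were chosen with earlier results of these data known. No member of the lists for nuclear oxidative phosphorylation (64 genes passed), calcium release (24), lysosome (14) or fibro-adipogenic progenitors and matrix (14) was variable. With 2.86% of all genes variable, lists of this size would hold few such genes in any case. The steadiest named genes were Surf4, a cargo receptor of the secretory pathway, at 102, 105, 104, 106 and 102 CPM, and Ctsd, the lysosomal protease cathepsin D, at 538, 521, 544, 538 and 512 CPM. Their SDs were 0.03 and 0.04. Sdf4, Arl8b, Ahsa1, Ndfip1, Rpn1, Itga7, Slc25a51 and Eif4h completed the 10 steadiest genes above 50 CPM. Itga7, the laminin receptor of fibres and satellite cells, held 51.3 to 54 CPM. Ctsl, another lysosomal protease, had 79.8, 79.2, 70.1, 77.1 and 89.8 CPM.

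Genes of the slow list, together with Myom3, made up 8 of the 25 most variable named genes. Myh7 had 76.3, 989.6, 190.1, 32.5 and 41.2 CPM and an SD of 2.0. Atp2a2, the slow calcium pump, followed with an SD of 1.5, Tnni1 with 1.43, Tnnc1 with 1.40 and Tnnt1 with 1.39. Tpm3 had an SD of 1.23, Myl2 of 1.01 and Myom3, an M-band protein, of 0.99. All 8 were highest in replicate 2 and lowest in replicate 4. Myom3 was on none of the lists, so its pattern is given beside theirs and not as that of a slow gene.

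Among the named genes Mt2 varied most. It had 6.9, 15.7, 224, 6.84 and 6.01 CPM and an SD of 2.20, and Mt1 had 18.1, 33.3, 257, 15.2 and 14.6 CPM with an SD of 1.74. Both genes encode small metal-binding proteins and are alike in sequence, and both were far higher in replicate 3 than elsewhere. Nr4a3, a nuclear receptor induced by exercise, was similar, with 8.35, 10.8, 195, 6.46 and 7.93 CPM and an SD of 2.05. Because these 3 genes were far higher in 1 library, the 250 bases before their starts are shown, from RefSeq on GRCm38.p6: chr8:94178839-94179088, chr8:94172368-94172617 and chr4:48045055-48045304, all on the plus strand. Capitals mark, on either strand, the core of the metal response element (TGCNCNC) in Mt1 and Mt2 and the cyclic AMP response element core (TGACG) in Nr4a3.

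Mt1: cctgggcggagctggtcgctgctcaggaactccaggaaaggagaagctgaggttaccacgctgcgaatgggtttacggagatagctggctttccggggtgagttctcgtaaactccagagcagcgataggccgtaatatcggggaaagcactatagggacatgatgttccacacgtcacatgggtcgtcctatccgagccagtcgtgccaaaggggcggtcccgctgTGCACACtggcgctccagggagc
Mt2: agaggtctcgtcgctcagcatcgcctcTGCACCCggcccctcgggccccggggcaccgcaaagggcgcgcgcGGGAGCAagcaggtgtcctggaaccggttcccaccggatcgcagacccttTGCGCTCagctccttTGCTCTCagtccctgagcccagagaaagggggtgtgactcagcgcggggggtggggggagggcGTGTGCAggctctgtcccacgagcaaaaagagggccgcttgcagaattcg
Nr4a3: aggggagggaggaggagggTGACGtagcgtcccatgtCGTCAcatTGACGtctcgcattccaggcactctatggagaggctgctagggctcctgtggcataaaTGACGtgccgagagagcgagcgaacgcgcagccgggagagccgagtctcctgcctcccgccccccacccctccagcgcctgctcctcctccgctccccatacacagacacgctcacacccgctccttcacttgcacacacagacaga

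Mt2 held 5 matches to the metal response core and Mt1 held 1 in this window. The annotated start of Mt1 may lie upstream of its main start site, so the counts of the 2 genes are not compared. A match was present in 44.4% of the 32851 windows, and 5 or more in 0.344%. Nr4a3 held 4 matches to TGACG, where 17.8% of windows held at least 1 and 0.137% held 4 or more. These are counts of letters and say nothing of which factor acted.

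Genes of fasting, glucocorticoid signalling and muscle wasting were higher in replicate 3 as a group. Of 24 such genes, 23 passed the filter, 19 were highest in replicate 3 and 12 were variable. Over all genes 2.86% were variable. The share of all genes highest in a given library was not counted, for this list or those that follow. The median of the 23 lay -0.32, 0.29, 0.65, -0.38 and -0.42 log2 CPM from their means. Trim63, the ubiquitin ligase MuRF1 of muscle wasting, had 281, 479.7, 1229, 288 and 282.4 CPM. Foxo1, the transcription factor that turns on such ligases, had 23.8, 71.3, 112, 23.1 and 21.8 CPM. Pdk4, a kinase that inhibits the pyruvate dehydrogenase complex in fasting, had 771, 1583, 1986, 613 and 629 CPM. For Foxo1 and Pdk4 replicate 2 was also above replicates 1, 4 and 5, which lay close together. Ddit4, an inhibitor of mTORC1 signalling, had 20.8, 102, 113, 21.2 and 15.9 CPM, high in both replicates 2 and 3. Fbxo32, the ligase atrogin-1, varied less, with 373, 586, 561, 383 and 389.9 CPM and an SD of 0.32. Without replicate 3, 7 members were variable in place of 12.

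Other regulated genes had the same library on top. Ppargc1a, the coactivator of mitochondrial biogenesis, had 35.6, 88.9, 294, 26.4 and 40 CPM and an SD of 1.40. Hk2, the hexokinase of insulin-responsive muscle, had 267, 395, 654, 255 and 243 CPM, the only variable member of the glycolysis list. Pfkfb3, which makes an activator of glycolysis, ran the other way with 168, 85.2, 34.5, 189 and 219 CPM, lowest in replicate 3. Among 18 immediate early genes that passed, 12 were highest in replicate 3 and 6 were variable, against 2.86% of all genes. Without that library 1 was variable. Fos had 2.89, 8.21, 13.8, 2.58 and 5.3 CPM and Csrnp1 2.23, 7.92, 12.1, 2.42 and 3.96 CPM. In both genes replicates 2 and 3 were highest and replicates 1 and 4 lowest.

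All 7 acute phase and cytokine genes that passed were highest in replicate 3, and 4 were variable, against 2.86% of all genes. Without that library 1 was variable. Cebpd, a transcription factor of the acute phase, had 22.5, 51.7, 53.3, 20.9 and 17.5 CPM, Stat3, the factor downstream of IL-6, had 27.4, 40.6, 68.1, 26.8 and 28 CPM, and Il6ra, the IL-6 receptor, had 6.96, 12.4, 18.9, 5.87 and 7.26 CPM. Il6 itself had at most 2 counts. In the same library the neutrophil sum was 11.5 TPM against 1.49 or less in the others, and the red cell sum was the lowest. The part of these cells in the acute phase values was not tested.

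Several genes stood out in replicate 3 alone. Agt, which encodes angiotensinogen, had 6.79, 6.89, 37, 7 and 6.59 CPM, and an SD of 1.08 that was 0.03 without that library. Prg4, the joint lubricant lubricin, had 10.6, 11.4, 55.2, 6.46 and 8.33 CPM, Adamts9, a matrix protease, 4.06, 5.91, 25.4, 5.17 and 5.97 CPM, and Arhgap26, a GTPase-activating protein, 5.34, 9.76, 28.6, 5.81 and 5.52 CPM. Without replicate 3 their SDs were 0.37, 0.25 and 0.40, all under 0.5, and that of Nr4a3 was 0.30. Tmem267, a membrane protein, had 8.91, 8.32, 8.48, 12.7 and 45.2 CPM and was high in replicate 5 alone, with an SD of 0.28 without it. Npr3, the clearance receptor of natriuretic peptides, was highest in replicate 2 at 3.9, 16.4, 5.67, 2.37 and 4.23 CPM. Cfd had an SD of 1.3 and Chad, a cartilage matrix protein, of 0.99.

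**Figure D4:**
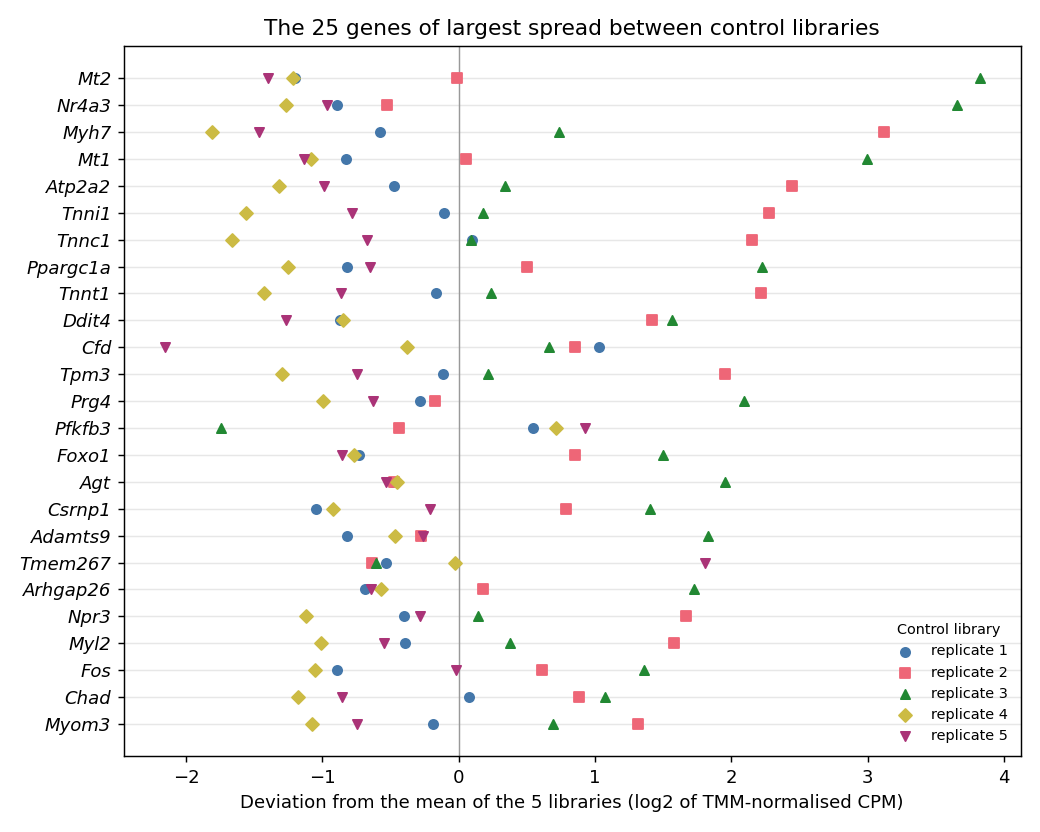
Deviation of log2 CPM from the 5-library mean for the 25 named genes of largest SD, 1 symbol per control library. Slow fibre genes such as Myh7 are highest in replicate 2, Mt2, Nr4a3 and Agt in replicate 3 and Tmem267 in replicate 5.

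Among the cell type lists, those of Schwann cells and tenocytes held the most variable genes. Over all genes 2.86% were variable, the share to set beside each list below. Of 3 adipocyte genes that passed, 2 were variable. The lymphatic, platelet, satellite cell and neuromuscular junction lists held 1 each, of 4, 1, 7 and 12 that passed. All 7 Schwann cell genes that passed were highest in replicate 3 and lowest in replicate 4, with a median of -0.49, -0.15, 0.86, -0.72 and 0.51 log2 CPM from their means, and 6 were variable. Mbp had 28.9, 43.3, 91.6, 19.5 and 59.4 CPM and an SD of 0.87. Of 6 tenocyte genes, 4 were variable; Tnmd, the tendon membrane protein tenomodulin, had 8.52, 13, 11.1, 3.34 and 4.68 CPM. Among 14 endothelial genes, 9 were highest in replicate 5 and 1, Kdr, was variable. The interferon list had 11 of 12 genes highest in replicate 5, with a median of 0.29 there, and 2 variable members, the guanylate binding protein gene Gbp6 and the GTPase gene Iigp1. Iigp1 had 7.24, 11, 6.85, 8.83 and 20.7 CPM.

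Of 16 clock genes 2 were variable, against 2.86% of all genes, and their median SD was 0.27 against 0.16 over all genes. Dbp, a clock output factor, had 66, 57.8, 25.6, 82.3 and 76.9 CPM, and Nfil3, which represses Dbp targets, had 18.6, 29.3, 54.5, 18.3 and 16.3 CPM. Dbp was lowest and Nfil3 highest in replicate 3. Without that library neither was variable. The hour of sampling is not in the labels. Heat shock genes had 2 of 15 variable members, against the same 2.86%, and a median SD of 0.25. These 2 were Hspa1a, with a near-identical copy, and Hspb7, a small heat shock protein of muscle at 324, 600.2, 582, 279 and 274 CPM.

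**Figure D5:**
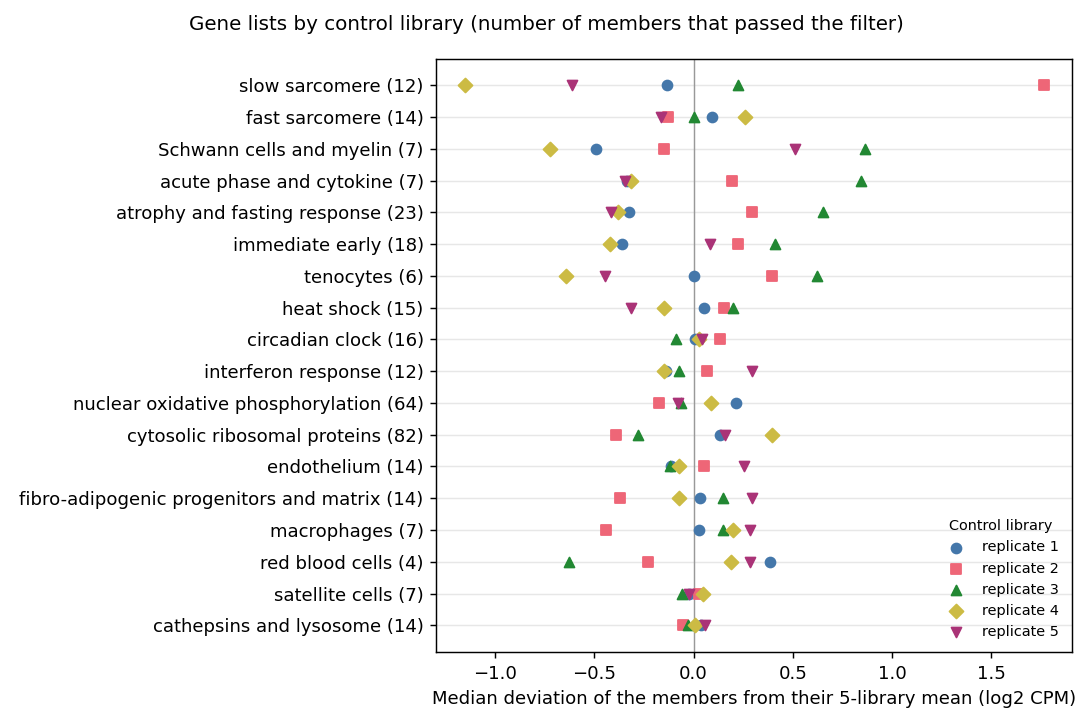
Median deviation (log2 CPM) of each gene list from its members' 5-library means, 1 symbol per control library, with the number of members that passed the filter in brackets. Slow sarcomere genes spread from -1.15 in replicate 4 to 1.76 in replicate 2, and satellite cell and lysosome lists stay near 0.

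By library, 64 of the 100 most variable genes were highest in replicate 3, 18 in replicate 2, 10 in replicate 5 and 4 each in replicates 1 and 4. Of all 254 variable genes, 53.1% were highest in replicate 3. The same share over all genes that passed the filter was not counted. In the other direction 54 were lowest in replicate 4. The first principal component of log2 CPM held 53.8% of the variance and placed replicates 2 and 3, at 14.3 and 21.5, apart from replicates 1, 4 and 5, at -10.1, -16.6 and -8.97. Gene length moved with the same division: 1297 genes over 5000 bases had medians of -0.09, 0.14, 0.08, -0.10 and -0.01 log2 CPM from their means, and the 94 genes under 500 bases the opposite pattern of 0.21, -0.36, -0.19, 0.29 and 0.09. The part of length in the component was not tested. Among 6747 nuclear genes of 1000 to 5000 bases, 181 were variable, beside 254 of the 8889 genes without that limit. The median of the 18 wasting and fasting genes of that length in replicate 3 was 0.65, the value found without the limit.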

How the data were processed

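Bulk RNA-seq of 5 control tibialis anterior libraries was used, grouped by title. The deposited tables give expected counts, TPM and FPKM per gene; FPKM entered only an alternative for the share of the leading genes. Per the submitters' processing notes, the tools were Trim Galore, STAR 2.7.9a and RSEM 1.3.3. The genome build, annotation and strand setting are not given in the sources used here. RSEM divides reads that match several genes, and its effective length inflates the TPM of very short genes.

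Of 55416 gene identifiers, 52083 matched a symbol in GENCODE vM21; the others held at most 0.378% of counts. Expected counts were rounded, scaled by TMM (edgeR 4.0.16, R 4.3.3) and written as log2 CPM with a prior count of 2; printed CPM values are on the same TMM scale. Genes with a mean of at least 5 CPM were kept. The measure of spread was tested on simulated data of lower dispersion than these libraries, so its error rates here were not established. Pairwise correlations of log2 CPM across genes were 0.968 to 0.992, and a chi-square of 19.8 to 80.4 per gene separated each pair of libraries, so none was deposited more than once. Mitochondrial copies were aligned with BLAST 2.17.0.

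Named genes were the 20 nuclear genes of highest mean TPM, the mitochondrial protein genes, the myosin heavy chains, 10 pairs of fast and slow paralogs, leading and most variable members of each list with those at 0 throughout, the 25 most and, at a mean of at least 50 CPM, the 10 least variable genes, leaving out predicted (Gm) and RIKEN (Rik) symbols, and Ctsl, Trim63, Fbxo32, Cd8a and Cd274. A few further list members are named to describe their list; Pax7, Adipoq, Chrna1, Chrng, Il6, Xist, Tbx4 and Pitx1 were chosen after their values were seen. Members and lists were chosen with earlier results of these data known. Alternatives covered scaling by DESeq2 1.42.0 size factors, upper quartile or library totals, other filters, prior counts and thresholds, and each library left out.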

Additional observations from a re-analysis of the deposited data

Results flagged for a closer look

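Of 108 values examined (the 20 nuclear genes of highest level, the 25 most variable named genes, shares, ratios and sums), 23, or 21.3%, had 1 library at an end of the range whose gap to the next covered more than 0.71 of the whole range. Chance alone does this in about 1 in 20 groups of 5, and many of these genes were taken for their spread, so they had to include such cases. Replicate 3 was the library apart in 9 of them, replicate 2 in 8, replicate 4 in 5, replicate 5 in 1 and replicate 1 in 0.

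Replicate 2 stood high for slow fibre genes. Its Myh7 share of adult limb myosin was 5.52% against 0.193 to 0.985% elsewhere, and its Myh7 level was 248 TPM against 8.43 to 50.3. The other slow genes of this kind were Atp2a2 at 250.4 TPM, Tnni1 at 141, Tnnc1 at 471, Tnnt1 at 336 and Tpm3 at 443 TPM; the next highest library stood at 54.95, 32, 109.8, 82.2 and 113.9 TPM. Npr3 was also high there, at 2.76 TPM against 0.35 to 0.9.

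Replicate 3 stood high for Mt2 at 663 TPM against 17.4 to 47.4 elsewhere, Mt1 at 660.2 against 39.5 to 87.4, Nr4a3 at 34.3 against 1.18 to 2.04 and Ppargc1a at 80.8 against 4.69 to 21.6. It was also apart for Prg4 at 27.7 TPM, Agt at 19.8, Adamts9 at 3.27 and Arhgap26 at 3.79 TPM. The neutrophil sum in that library was 11.5 TPM against 1 to 1.49.

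Replicate 4 stood high for the glycolytic and energy genes Ckm at 18049.6 TPM, Aldoa at 18207 TPM and Gapdh at 11247 TPM and for the fast alpha-actinin gene Actn3 at 2603 TPM, and low for Mb at 1795 TPM against 2524 to 2778. These 5 genes were apart in TPM only: in CPM replicate 4 was at the same end, but the gap was 0.312 to 0.559 of the range. The other 16 of the 21 genes were apart in CPM as well, an examination added after seeing the data. In replicate 5 Tmem267 was high at 37.7 TPM against 5.36 to 8.5 in the others.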

How the results depend on the processing

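No paired analysis was possible because only 1 group was used. The share of the 10 leading genes was 26.5% of expected counts, 35.6% of TPM without the mitochondrial genes, and 27.9% without those and their nuclear copies; it ran from 40.4 to 42.6% with each library left out. The mitochondrial share was 20.5% of expected counts, 28.0% of counts per full length and 49.5% with the copies added, and 34.4 to 36.8% with each library left out. The Myh4 share kept within 1 SD throughout, at 83.5 to 86.1% with each library left out. The sum of cell type markers was 7063 TPM with the mitochondrial genes left out and TPM rescaled, 2244 TPM without the leading gene of each list, and 4265 to 4676 TPM with each library left out. The number of variable genes rested on the filter: 717 at a mean of 1 CPM and 4182 with no filter, where low counts add spread. By edgeR dispersion at the matching coefficient of variation of 34.7% it was 123, all among the 254. DESeq2 size factors, upper quartile scaling, library totals, a smaller prior count and log2(TPM + 1) gave 230 to 298. With each library left out the number was 165 to 325, lowest without replicate 3. Among list members, 34 had an SD of at least 0.7 and 170 of at least 0.3, and 46 to 77 were variable with each library left out. The share of the 100 most variable genes highest in replicate 3 was 65 to 77% with each of the other libraries left out, highest without replicate 2. The order of libraries did change: replicate 4 had the lowest share in the 10 leading genes, 36.6%, but the highest, 30.9%, without the mitochondrial genes and copies. Alternatives that leave the mitochondrial genes out, the full length, the copies, the leading genes and the length limit were in part chosen after seeing the data. The number of libraries, 5, limits all estimates of spread, and levels under 3 counts per library are not distinguishable from 0 at this depth.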

Other observations

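Genes for secreted muscle factors and for receptors were also measured. Of 21 secreted factor genes, 14 passed the filter and 2 were variable, Angptl4 and Ostn, against 2.86% of all genes. Sparc, a matrix protein, led at 135, 155, 216, 148 and 210.5 TPM, followed by Vegfb at 59.5 to 74.2 TPM and Vegfa, the main angiogenic factor, at 34.5 to 59.8 TPM. Ostn, the bone and muscle peptide osteocrin or musclin, had 12.1, 15.6, 16.3, 11.6 and 36.4 TPM and was highest in replicate 5. Angptl4, an inhibitor of lipoprotein lipase, had 1.58, 3.29, 6.63, 1.7 and 2.19 TPM and was highest in replicate 3. Fgf21, a hormone of metabolic stress, was listed at 0 in all 5 libraries.

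Of 23 receptor genes, 18 passed and 1, Il6ra, was variable, against the same 2.86%. Adipor1, a receptor for adiponectin, led at 99.3, 100, 97.1, 133 and 135 TPM, and the growth hormone receptor Ghr stood at 31.7 to 39.6 TPM. Osmr, the oncostatin M receptor, had 1.23, 1.69, 3.63, 1.64 and 2.27 TPM, highest in replicate 3. The GDF15 receptor gene Gfral and the GLP-1 receptor gene Glp1r were listed at 0 in all 5 libraries. Among stress response genes, Atf4, the central factor of the integrated stress response, was steady at 76.8, 92.9, 106, 96.9 and 101 TPM, while Chac1, an enzyme that degrades glutathione, had 56.5, 77.4, 43.6, 69.2 and 37.4 TPM and an SD of 0.52 log2 CPM. Lpl, the lipoprotein lipase of muscle, had 119, 235, 189, 91.5 and 132 TPM, highest in replicate 2 and lowest in replicate 4.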
